A study of Mus musculus with 5 samples.

Results

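The genes described here encode parts of the primary cilium and of intraflagellar transport (IFT), the traffic of protein trains along the ciliary axoneme. They were chosen by name as cilium genes that Gli processing needs, and 47 were listed. Probe sets carrying the gene's symbol and no other were found for 44 of them, out of 18193 genes so measured, and Arl6, Arl13b and Rpgrip1l were not analysed here. The 44 genes had 76 probe sets out of 45037, and each gene was represented by its brightest probe set, by mean log2 intensity over the 5 arrays. RNA came from forelimb buds of C57Bl/6 mouse embryos at E11.5. The groups were 2 arrays from double mutants (Sost-/-; Sostdc1-/-), which lack the secreted Wnt antagonist sclerostin and its paralog, and 3 arrays from wild type embryos. The title of the series ties both genes to digit number and to Gli3, so the comparison asks here whether transcripts of the organelle in which Gli3 is processed differed between the genotypes. The design text says that embryos were not pooled, and the sources used here do not give the deleted part of either gene.

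The primary cilium is a non-motile, microtubule-based projection that most limb bud mesenchyme cells carry. IFT-B trains, pulled by kinesin-2, move cargo to the tip, and IFT-A trains, pulled by dynein-2, bring it back. The transition zone at the base gates entry, and the BBSome carries membrane proteins out. Without Hedgehog ligand, full-length Gli3 passes through the cilium and is cut to its repressor form, and with ligand Smo enters the cilium and Gli activators form. Mouse mutants of many of these genes have extra digits.

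The arrays of each genotype had properties of their own that bear on every result below. Both targeted genes fell in double mutants, on a Sost probe set (4.16 and 4.43 against 6.19 to 6.75 in wild type, as log2 intensities) and on a Sostdc1 probe set (6.28 and 7.35 against 8.94 to 9.42), with adjusted p of 0.0091 and 0.0233 in limma. A second Sost probe set was not called (-0.73, adjusted p = 0.237). The second Sostdc1 probe set was at 8.90 and 8.96 in double mutants against 8.75 to 9.01 in wild type, and its place relative to the deletion was not known here. The poly-A spike-in Dap, added during RNA preparation, was at 6.90 and 7.28 in double mutants against 3.23 to 3.36 in wild type, so preparation and genotype cannot be told apart. The 3' minus 5' log2 difference of Gapdh was 0.16 and 0.27 in double mutants against -0.14 to -0.06 in wild type. For Actb it overlapped (0.65 and 0.56 against 0.20 to 0.68), as it did for Tfrc (1.32 and 1.75 against 1.62 to 2.09), whose mean was lower in double mutants. Xist was high in both double mutant arrays (12.37 and 11.75) although the Y-linked gene Eif2s3y was also high in both (8.36 and 8.36), whereas in each wild type array only one of the pair was high. The double mutant arrays thus stand apart from the design text, which gives unpooled embryos, and since they are the whole group no result can be given without both. The forelimb gene Tbx5 (10.77 in double mutants against 10.20 in wild type) and the mesenchyme gene Prrx1 (12.29 and 12.26) had signal in both groups, and limma called 0 of 8 limb mesenchyme markers, with 1 at an unadjusted p under 0.05.

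Of the 7 member genes called between the genotypes, 5 have an entry among the RefSeq promoters of GRCm38.p6. The sequences of these 5 promoters are shown, and their part in the differences was not tested. Each runs from 250 bases before the annotated start to 50 bases after it, 5' to 3' on the gene's strand. Capitals mark a match to the X-box, the paired motif bound by RFX factors, which drive many ciliary genes. Bbs1 and Bbs12 rose in double mutants, whereas Tctn2, Ift46 and Ift52 fell.
Bbs1 (chr19:4906578-4906877, minus strand): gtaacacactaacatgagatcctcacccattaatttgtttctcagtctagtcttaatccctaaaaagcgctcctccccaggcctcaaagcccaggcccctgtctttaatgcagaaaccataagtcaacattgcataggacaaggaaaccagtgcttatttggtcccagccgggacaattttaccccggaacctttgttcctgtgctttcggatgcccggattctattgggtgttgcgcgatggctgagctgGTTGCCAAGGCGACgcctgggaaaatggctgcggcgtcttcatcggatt
Bbs12 (chr3:37312304-37312603, plus strand): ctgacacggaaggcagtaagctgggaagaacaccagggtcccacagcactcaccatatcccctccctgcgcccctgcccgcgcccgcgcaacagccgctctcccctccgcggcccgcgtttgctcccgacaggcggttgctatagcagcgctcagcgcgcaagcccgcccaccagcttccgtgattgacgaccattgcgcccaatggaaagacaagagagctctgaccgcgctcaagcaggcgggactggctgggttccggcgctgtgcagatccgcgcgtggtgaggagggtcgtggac
Tctn2 (chr5:124598499-124598798, plus strand): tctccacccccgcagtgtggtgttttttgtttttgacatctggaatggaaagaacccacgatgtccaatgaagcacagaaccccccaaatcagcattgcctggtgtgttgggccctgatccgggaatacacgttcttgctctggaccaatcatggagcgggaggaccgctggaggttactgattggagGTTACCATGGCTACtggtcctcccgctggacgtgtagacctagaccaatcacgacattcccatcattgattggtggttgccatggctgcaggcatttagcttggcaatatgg
Ift46 (chr9:44772759-44773058, plus strand): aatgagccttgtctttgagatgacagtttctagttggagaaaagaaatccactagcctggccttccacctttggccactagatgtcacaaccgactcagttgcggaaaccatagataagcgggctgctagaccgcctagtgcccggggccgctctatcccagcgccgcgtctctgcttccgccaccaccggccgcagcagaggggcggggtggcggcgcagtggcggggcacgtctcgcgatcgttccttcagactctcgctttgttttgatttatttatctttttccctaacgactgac
Ift52 (chr2:163017103-163017402, plus strand): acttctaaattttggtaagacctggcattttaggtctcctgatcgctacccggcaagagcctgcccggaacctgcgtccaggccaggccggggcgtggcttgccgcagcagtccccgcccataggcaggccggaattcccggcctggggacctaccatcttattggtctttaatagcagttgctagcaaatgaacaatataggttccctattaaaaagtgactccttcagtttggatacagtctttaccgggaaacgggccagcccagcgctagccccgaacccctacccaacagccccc

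The X-box was searched on both strands with a gap of 0 to 3 bases between its arms. It was found in Bbs1, where it lay 1 to 14 bases after the start, and in Tctn2, where it lay from 62 to 49 bases before it. Bbs12, Ift46 and Ift52 had no match in this window. Thus 1 gene that rose and 1 that fell carried the motif. Of the 41 promoters listed for measured members, 12.2% held an X-box, against 1.53% of all 32851 promoters of this length. The 6-base arm GTTGCC, which overlaps the X-box, was in 43.9% of the 41 and in 12.51% of all. A match is a description of letters and no evidence of binding. The other 3 members with an X-box were not called, and their matches are shown with 10 bases on either side, cut at the end of the window for Tctn1. Ift57 has 2 matches.
Ift57 (chr16:49699197-49699256, plus strand): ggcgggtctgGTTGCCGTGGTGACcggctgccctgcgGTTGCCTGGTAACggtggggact
Tctn1 (chr5:122264411-122264434, minus strand): ggctgtgactGTTGCCCGGGCAAC
Tctn3 (chr19:40612349-40612381, minus strand): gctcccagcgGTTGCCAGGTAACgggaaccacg

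On the brightest probe set, 3 cilium genes rose in double mutants, 4 fell and 37 were not called. The genes that rose were Bbs1, Bbs12 and Ift81, and those that fell were Tmem67, Ift46, Tctn2 and Ift52, with changes between 1.36-fold and 1.86-fold. In bulk tissue a fall can mean fewer cells of a type or less RNA per cell, and these cannot be told apart. A call is an adjusted p under 0.05 in a limma fit of all 45037 probe sets, with Benjamini-Hochberg adjustment. The 7 calls were 15.9% of the members, against 14.7% of all genes by their brightest probe set. Those that rose were 6.82% of the members against 6.56% of all genes, and those that fell were 9.09% against 8.14%. Over all probe sets 18.2% were called. The shares of the members were thus near those of all genes, and with equal array medians 2 members rose and 7 fell, while over all 45037 probe sets 3776 then rose and 5849 fell, against 3919 and 4287 as deposited. The median log2 difference of the 44 members was -0.01, against -0.02 for all genes. An unadjusted p under 0.05 was reached by 14 members (31.8%) and by 28.7% of all genes. The arrays of the groups did not overlap in 21 members (47.7%), against 43.2% of all genes.

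The members as a group did not move together in either double mutant array. Relative to the wild type mean of each gene, the median over the 44 members was 0.09 in double mutant replicate 1 and -0.02 in replicate 2. The 3 wild type arrays was at -0.01, 0.01 and -0.00. Replicate 1 of the double mutants was the higher of the pair in 33 members and the lower in 8, with 3 equal. The median log2 intensity over all probe sets was also higher in replicate 1, at 5.47 against 5.39 in replicate 2. The same split over all genes is not given here. Without double mutant replicate 2 the members' median difference was 0.09.

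**Figure D1:**
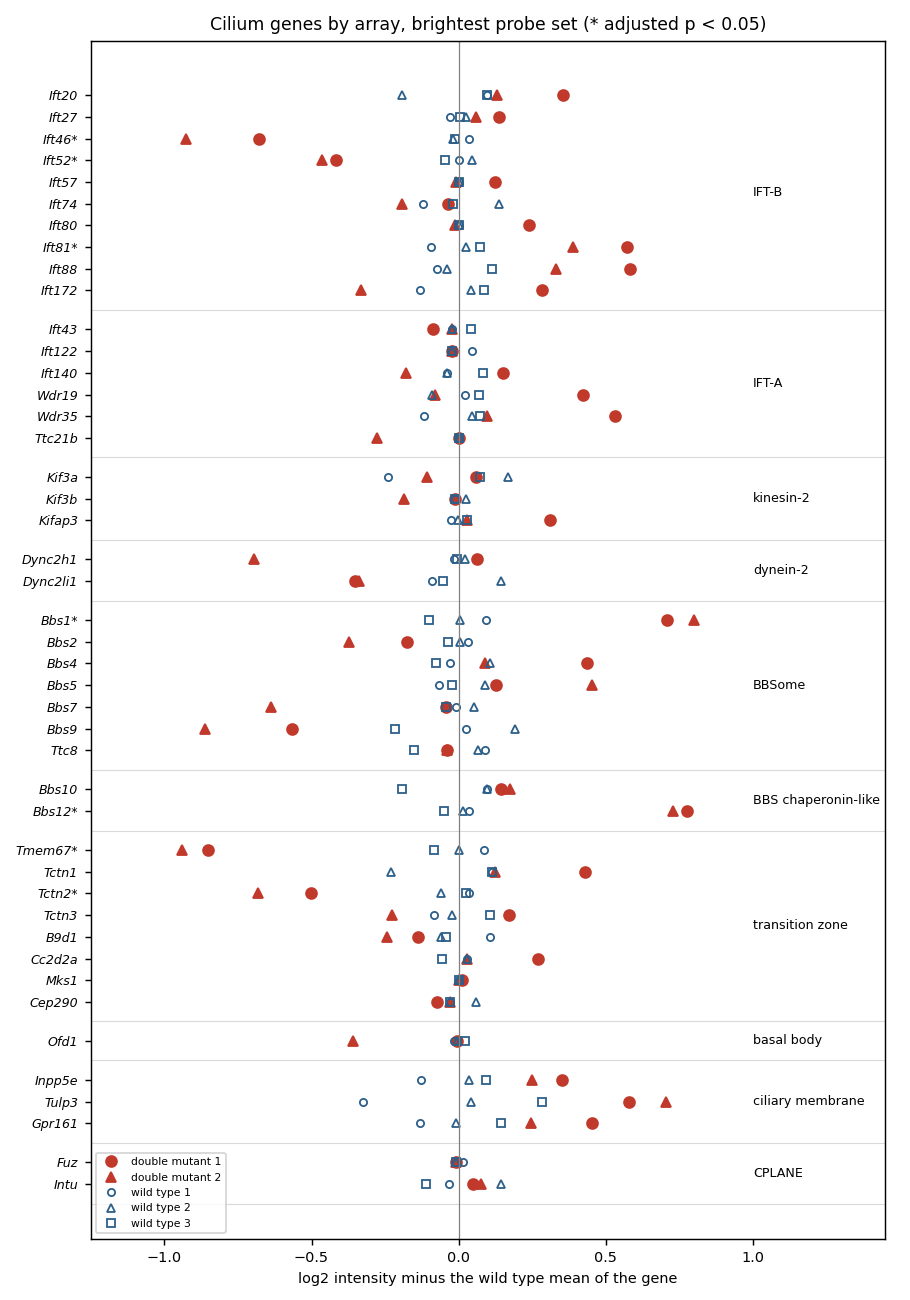
Log2 intensity of each of the 44 measured cilium genes on its brightest probe set, as the difference from the wild type mean of that gene (horizontal axis), by role. Red filled symbols are the 2 double mutant arrays, blue open symbols the 3 wild type arrays, equal values lie on top of each other, and asterisks mark the 7 called genes. Double mutant symbols lie on both sides of 0, with the called genes running from -0.90 at Tmem67 to 0.75 at Bbs1.

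In the IFT-B complex, which carries cargo toward the ciliary tip, 1 of 10 measured genes rose and 2 fell. Ift46, a core IFT-B subunit, had log2 intensities of 9.93 and 9.68 in double mutants against 10.64, 10.58 and 10.59 in wild type. The double mutant arrays both lay below all wild type arrays, and the difference was -0.80 ± 0.09 (SE, adjusted p = 0.0124). Ift52, the scaffold subunit of the same core, had 8.82 and 8.78 in double mutants against 9.24, 9.29 and 9.20 in wild type. Its groups did not overlap either, and it fell by 0.44 ± 0.05 (SE, adjusted p = 0.0137). Ift81, which with Ift74 binds tubulin cargo, went the other way, at 9.82 and 9.63 in double mutants against 9.15, 9.27 and 9.32 in wild type. It rose by 0.48 ± 0.09 (SE, adjusted p = 0.0339), and its partner Ift74 differed by -0.11 ± 0.10 (adjusted p = 0.495). Other Ift81 probe sets, given below, were not called.

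Ift88, the IFT-B gene whose hypomorphic mouse mutants are polydactylous, had 8.53 and 8.28 in double mutants against 7.87, 7.91 and 8.06 in wild type. The arrays did not overlap, but the difference of 0.46 ± 0.11 (SE) missed the threshold (adjusted p = 0.0566). The other 6 IFT-B genes, Ift20, Ift27, Ift57, Ift74, Ift80 and Ift172, differed by -0.11 to 0.24 and were not called. Ift172, a peripheral subunit needed for the response to Hedgehog ligand, had the widest double mutant spread of the complex, with an SD of 0.43 (n = 2) beside 0.11 (n = 3) in wild type and a difference of -0.03 ± 0.21 (SE).

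In the IFT-A complex, which returns cargo to the base, limma called 0 of 6 genes, with 0 at an unadjusted p under 0.05. Wdr35, which encodes an IFT-A subunit, had the smallest p, with 9.29 and 8.85 in double mutants against 8.64, 8.80 and 8.83 in wild type. Its difference of 0.32 ± 0.16 (SE) was not called (adjusted p = 0.261). Ift43, Ift122, Ift140, Wdr19 and Ttc21b differed by -0.14 to 0.17. Ttc21b, a subunit whose loss in the mouse raises Hedgehog signalling, was at 8.58 in all 3 wild type arrays and in double mutant replicate 1, and at 8.30 in replicate 2.

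Among the motors limma called 0 of 5 genes on the brightest probe set, and Dync2li1 alone reached an unadjusted p under 0.05. Dync2li1, the light intermediate chain of dynein-2, had 9.30 and 9.31 in double mutants against 9.56, 9.80 and 9.60 in wild type. The groups did not overlap, and the difference was -0.35 ± 0.09 (SE, adjusted p = 0.0691). Dync2h1, the heavy chain of the retrograde motor, had 8.25 and 7.50 in double mutants against 8.17 to 8.21 in wild type, so its difference of -0.32 ± 0.24 (adjusted p = 0.422) lay in replicate 2. The kinesin-2 motor subunits Kif3a and Kif3b and the accessory subunit Kifap3 differed by -0.02, -0.10 and 0.17.

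In the BBSome, the coat that exports membrane proteins from the cilium, 1 of 7 genes rose and 0 fell. Bbs1 had log2 intensities of 7.64 and 7.73 in double mutants against 7.02, 6.93 and 6.83 in wild type. All double mutant values lay above all wild type values, and the rise was 0.75 ± 0.08 (SE, adjusted p = 0.0111). Bbs9 had 7.03 and 6.73 in double mutants against 7.62, 7.79 and 7.38 in wild type. Its groups did not overlap, and its difference of -0.71 ± 0.16 (SE) missed the threshold (adjusted p = 0.0533). Bbs2, Bbs4, Bbs5, Bbs7 and Ttc8 differed by -0.34 to 0.29.

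Bbs12 and Bbs10 encode chaperonin-like proteins that help to assemble the BBSome. Bbs12 had 7.79 and 7.74 in double mutants against 7.05, 7.03 and 6.97 in wild type. Its groups were well apart, and the rise of 0.75 ± 0.05 (SE, adjusted p = 0.00691) had the lowest adjusted p of all members. Bbs10 differed by 0.16 ± 0.11 (adjusted p = 0.394), with 6.86 and 6.89 in double mutants against 6.52 to 6.81 in wild type. The other Bbs10 probe set is given below.

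At the transition zone, the gate at the ciliary base, 0 of 8 measured genes rose and 2 fell. Tmem67, which encodes the transmembrane protein meckelin, had 4.41 and 4.32 in double mutants against 5.34, 5.26 and 5.17 in wild type. It fell by 0.90 ± 0.07 (SE, adjusted p = 0.00798), but it was the only member whose brightest probe set lay below the median of all probe sets in every array, so the size of this fall is uncertain. Tctn2, a tectonic protein of the same gate, had 6.06 and 5.88 in double mutants against 6.60, 6.50 and 6.59 in wild type. It fell by 0.59 ± 0.08 (SE, adjusted p = 0.0161), while the paralogs Tctn1 and Tctn3 differed by 0.28 ± 0.16 and -0.03 ± 0.15 and were not called. B9d1, Cc2d2a, Mks1 and Cep290 differed by -0.19 to 0.15. Mks1 had the same value, 7.57, in 4 of the 5 arrays and 7.58 in the other.

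The 3 ciliary membrane genes were each higher in both double mutant arrays than in any wild type array, but limma called 0 of 3. All 3 reached an unadjusted p under 0.05. Over all genes 28.7% reached it, and in 43.2% the groups did not overlap. Inpp5e, a phosphoinositide 5-phosphatase that sets the lipid makeup of the ciliary membrane, had 8.33 and 8.23 in double mutants against 7.85, 8.02 and 8.07 in wild type (difference 0.30 ± 0.09, adjusted p = 0.0954). Tulp3, which brings receptors into the cilium together with IFT-A, had 9.45 and 9.58 in double mutants against 8.55, 8.92 and 9.16 in wild type (0.64 ± 0.20, adjusted p = 0.107). Gpr161, a receptor that raises cAMP and so favours Gli repressor formation, had 9.53 and 9.32 in double mutants against 8.94, 9.06 and 9.21 in wild type (0.35 ± 0.12, adjusted p = 0.122). Tulp3 and Inpp5e each had another probe set of the opposite sign, given below.

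The remaining roles gave no call. Ofd1, a basal body gene on the X chromosome, differed by -0.18 ± 0.12 (adjusted p = 0.361), with 7.86 and 7.51 in double mutants against 7.85 to 7.89 in wild type. Intu and Fuz, of the CPLANE module that docks IFT particles at the base, differed by 0.06 ± 0.09 and -0.01 ± 0.04. Fuz had the value 5.50 in 4 of the 5 arrays.

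**Figure D2:**
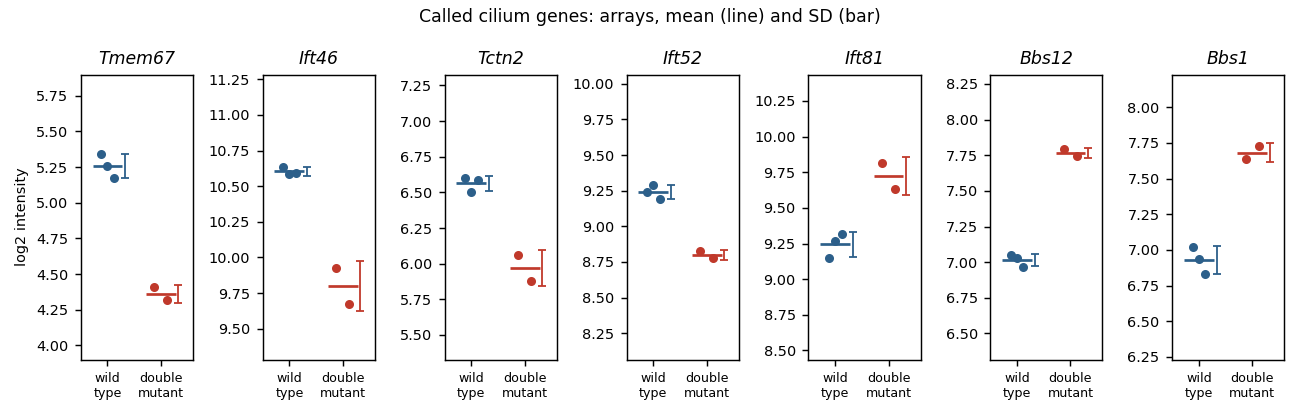
Log2 intensity (vertical axis, each panel 2 log2 units high) of the 7 called cilium genes in 3 wild type (blue) and 2 double mutant (red) arrays, with the mean as a line and the SD as a bar. In every panel the arrays of the groups do not overlap, and the 4 genes at the left fell while the 3 at the right rose.

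These 7 calls rested on few arrays. In each of the 7 the groups did not overlap, so leaving out any array could not change the sign of the difference. With a wild type array left out, limma called between 0 and 5 of them. Without double mutant replicate 1 or wild type replicate 2 limma called 0 members, and 0 probe sets in the whole table. In those fits 15 and 10 members, and 14059 and 11115 probe sets, still had an unadjusted p under 0.05. Bbs12 and Tmem67 were called in the other 3 fits, Ift46 and Bbs1 in 2 of 5, Ift52 in 1 of 5, and Ift81 and Tctn2 in 0 of 5, with adjusted p of 0.0655 to 0.132 and of 0.0506 to 0.0767. The Ift81 call was also lost with equal array medians (adjusted p = 0.0588).

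Other probe sets of the members were called in 1 direction. In the 20 genes with several probe sets there were 32 such probe sets, of which 8 fell, 0 rose and 24 were not called. The 8 were 25.0%, against 23.6% called over the other probe sets of all genes, of which 15.0% were lower and 8.66% higher. They belonged to 6 genes, and 3 of them were Kif3b probe sets that report the same gene. The direction differed between probe sets of the same gene in 13 of the 20 genes, and 14 of the 32 had the sign of the brightest (43.8%), against 56.1% over all genes.

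For Kif3b the brightest probe set gave 7.09 and 6.92 in double mutants against 7.09, 7.13 and 7.09 in wild type, whereas the other 3 fell by 0.91 ± 0.14, 1.10 ± 0.15 and 1.37 ± 0.15 (adjusted p = 0.022, 0.0185 and 0.0125). On 1450073_at, the probe set with the farthest fall, Kif3b was at 5.53 and 5.33 in double mutants against 6.94, 6.90 and 6.55 in wild type. Kif3b was therefore lower on 3 of 4 probe sets and not called on the fourth, an _s_at set, a suffix that marks probes shared between transcripts. Its motor partner Kif3a was called on 0 of 4, with differences of -0.02 to 0.31.

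Wdr35 had the widest disagreement. Its second probe set, 1440318_at, had 5.39 and 5.14 in double mutants against 8.74, 8.03 and 7.03 in wild type, and fell by 2.67 ± 0.54 (SE, adjusted p = 0.0415), against a difference of 0.32 on the brightest. Wild type replicates alone spanned 7.03 to 8.74 on this probe set. Ift80 was similar, at 6.61 and 6.84 in double mutants against 8.39, 8.54 and 7.92 in wild type on 1428329_a_at, and fell by 1.56 ± 0.22 (adjusted p = 0.0184), beside 0.11 ± 0.09 on the brightest. Wdr19 fell by 0.96 ± 0.09 on 1459034_at (adjusted p = 0.00953) and Ift122 by 0.39 ± 0.09 on 1427239_at (adjusted p = 0.0496). Ttc21b was the other IFT-A gene with a second probe set, which was not called.

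A dim Bbs4 probe set fell by 0.51 ± 0.08 (adjusted p = 0.0248), while the other 3 Bbs4 probe sets, at -0.03 to 0.61, were not called. Ttc21b on 1453520_at had 3.92 and 4.53 in double mutants against 6.41, 6.36 and 5.22 in wild type, without overlap but with an adjusted p of 0.0729 for a difference of -1.77 ± 0.46. Intu on 1458595_at (-1.05 ± 0.29, adjusted p = 0.0791) and Tctn3 on 1450324_a_at (-0.67 ± 0.15, adjusted p = 0.0503) also had lower values. Bbs10 on 1440787_s_at went the other way, without overlap, by 0.40 ± 0.09, and also missed the threshold (adjusted p = 0.0511). The dimmer Tulp3 probe sets differed by 0.26 and -0.28, and the second Inpp5e probe set by -0.32 (adjusted p = 0.0902). Ift81, the called gene with several probe sets, was called on an _s_at set, 1419286_s_at. It differed by 0.16 and -0.15 on the other 2, and neither was called. The other 6 called genes had 1 probe set each and so no such check.

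In 7 of the 8 probe sets that fell, wild type replicate 3 was the lowest of the 3 wild type arrays. The same held for 71.8% of the 2510 other probe sets called lower over all genes. Labelling used 2 rounds of amplification from the poly-A tail, and the distance of these probe sets from the tail was not known here. Whether it played a part in the disagreement between probe sets was not tested.

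**Figure D3:**
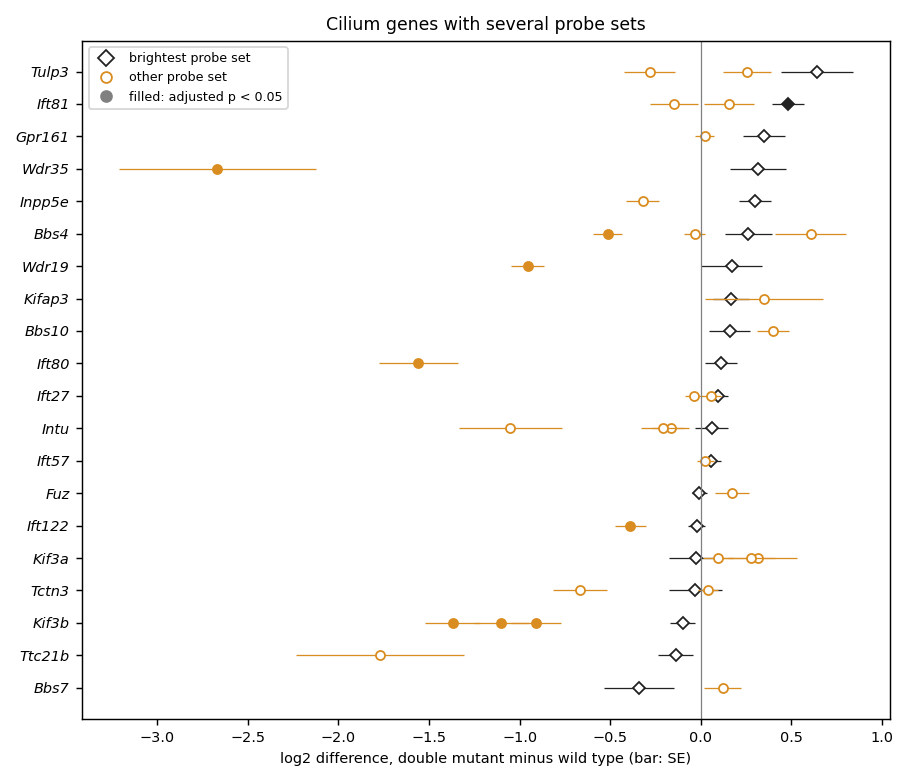
Log2 difference, double mutant minus wild type, with its SE (horizontal axis) for every probe set of the 20 cilium genes that have several. Diamonds are the brightest probe set of a gene, orange circles the others, and filled symbols have an adjusted p under 0.05. The 8 filled circles all lie left of 0, down to -2.67 at Wdr35, while the only filled diamond, Ift81, lies at 0.48.

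Other genes of the primary cilium were taken from lists of IFT and BBS subunits, transition zone proteins, basal body and docking proteins, centriole duplication factors, and vesicle and CPLANE proteins. Of 64 measured, 14 rose (21.9%), 4 fell (6.2%) and 46 were not called, with a median difference of 0.10, beside 6.56% and 8.14% over all genes. Among basal body and docking genes 5 of 18 rose and 0 fell. They included Ccp110, which caps the mother centriole and holds back cilium growth (0.76 ± 0.10, adjusted p = 0.0153), its partner Cep97 (0.50 ± 0.06, adjusted p = 0.0137) and Dzip1l (0.44 ± 0.07, adjusted p = 0.0222). Among centriole duplication genes 4 of 9 rose and 0 fell, with Stil (0.57 ± 0.08), Sass6 (0.50 ± 0.07) and Plk4 (0.39 ± 0.05), the kinase that starts duplication, at adjusted p of 0.0173 to 0.0186. Another probe set of Sass6 (-0.95) and another of Plk4 (-1.18) had the opposite sign and were not called (adjusted p = 0.089 and 0.156). The other Cep97 probe sets differed by 0.13, -0.17 and 0.40 and were not called.

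Subunits of the transport machinery outside the 47 were called both ways, as the members were. Among other IFT and BBS genes 3 of 15 rose and 3 fell. Bbip1, the smallest BBSome subunit, fell by 2.08 ± 0.22 (SE, adjusted p = 0.0111), from 10.79, 11.40 and 10.93 in wild type to 9.08 and 8.85 in double mutants. Its other 2 probe sets differed by 0.24 and 0.12 and were not called. The IFT-B gene Ttc30b fell by 1.43 ± 0.06 (SE, adjusted p = 0.00527), from 8.53, 8.64 and 8.62 to 7.13 and 7.20. Its near-identical paralog Ttc30a1 rose by 0.49 ± 0.09 (adjusted p = 0.0301), and how far the probes tell the paralogs apart was not known here. Traf3ip1, another IFT-B gene, rose by 0.47 ± 0.08 (adjusted p = 0.0246).

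At the transition zone 1 of 12 other genes rose, Iqcb1 (0.49 ± 0.05, adjusted p = 0.00963), and 0 fell. In the vesicle and CPLANE list 1 of 10 rose, the exocyst gene Exoc5 (0.61 ± 0.11, adjusted p = 0.0329), and 1 fell, the kinase gene Cdk20 (-0.60 ± 0.07, adjusted p = 0.0148). Of 6 RFX factor genes 1 rose, Rfx5 (0.83 ± 0.12, adjusted p = 0.0216), best known for MHC class II promoters. Rfx3, a main activator of ciliary genes, differed by 0.20 ± 0.08 (adjusted p = 0.187).

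The measured genes of the Hedgehog pathway, from ligand and receptors to Gli factors, included 3 of 20 that rose (15.0%) and 0 that fell on the brightest probe set. Over all genes 6.56% rose and 8.14% fell. The 3 Hedgehog genes were the targets Gli1 (1.20 ± 0.12, adjusted p = 0.0098) and Ptch1 (0.38 ± 0.07, adjusted p = 0.0296) and the transducer gene Smo (0.46 ± 0.09, adjusted p = 0.0348). Of the other Ptch1 probe sets 1 was called higher (1.78, adjusted p = 0.0445) and 1 lower (-1.36, adjusted p = 0.0157), and of the other Smo probe sets 1 was called lower (-0.62, adjusted p = 0.0324) and 1 was not called (0.23). Kif7, the kinesin that organises the ciliary tip for Gli proteins, was at 8.02 in double mutants against 7.97 in wild type (adjusted p = 0.556). Sufu, which holds Gli proteins until they reach the cilium, was at 8.89 and 8.74 (adjusted p = 0.443), and Gli3 at 10.16 and 10.40 (adjusted p = 0.625). Of the other Gli3 probe sets, the dimmest fell by 1.88 ± 0.34 (SE, adjusted p = 0.032), with 5.32 and 4.70 in double mutants against 6.72, 7.39 and 6.56 in wild type, and the second brightest differed by -0.03 (adjusted p = 0.881). On the brightest Gli3 probe set double mutant replicate 1 (10.65) lay above all wild type arrays (10.31 to 10.50) and replicate 2 (9.66) below them. All 3 Gli3 differences were below 0, but only that of the dimmest probe set was called, and their size depended on the probe set. None of these RNA levels measures the cutting of Gli3 protein.

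Genes of motile cilia, which limb bud cells do not build, served as the check for another ciliated cell type. None of 18 passed the limma threshold, and an unadjusted p under 0.05 was found for 2. Of the 18, 13 lay below the median of all probe sets in every array. Foxj1, the master regulator of motile ciliogenesis, was at 4.20 ± 0.25 (SD, n = 2) against 3.97 ± 0.09 (SD, n = 3), double mutant against wild type.

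Markers of other limb bud cell types did differ between the groups, where over all genes 6.56% rose and 8.14% fell. Of 10 ectoderm markers 5 rose and 0 fell, with summed intensities of 5992 and 5995 in double mutants against 4069 to 4493 in wild type. Of 8 endothelium markers 5 fell, with sums of 1597 and 1567 against 2167 to 2330, and of 8 erythroid markers 3 fell, with sums of 44846 and 50179 against 51264 to 54940. Limma called 0 of 8 macrophage markers (4 at an unadjusted p under 0.05), 1 of 7 muscle progenitor markers (lower), 0 of 4 neural crest and Schwann markers (0 at an unadjusted p under 0.05) and 0 of 5 cartilage markers (1). No marker had a value of 0, since the arrays give every probe set a signal. The part of these shifts in the cilium gene differences was not tested.

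**Figure D4:**
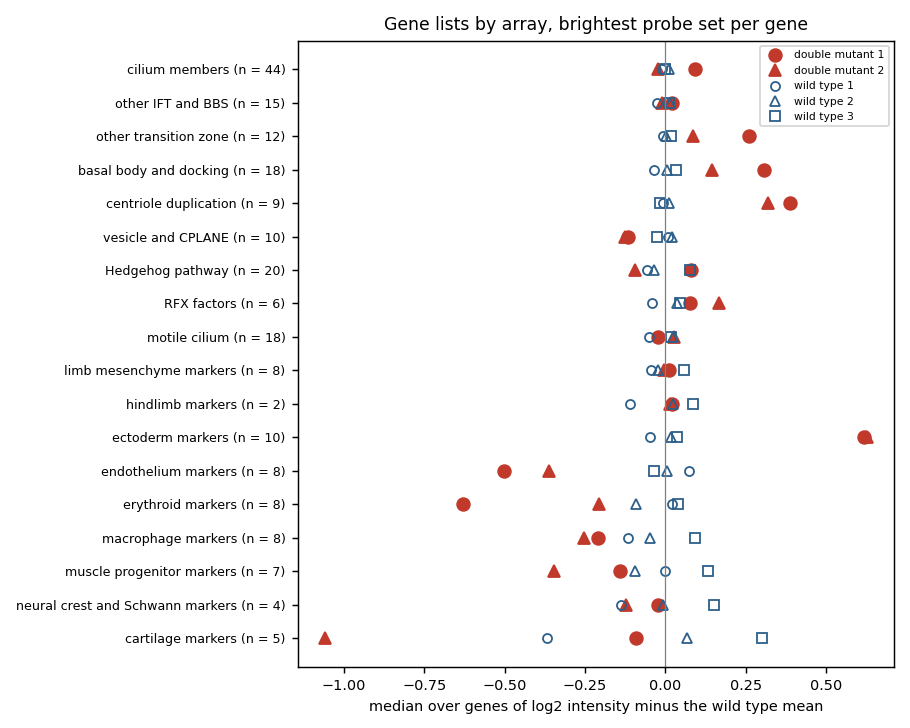
Median over the genes of each list of the log2 intensity minus the gene's wild type mean (horizontal axis), by array, on the brightest probe set of each gene. Red filled symbols are double mutant and blue open symbols wild type arrays. The cilium members lie near 0 in all 5 arrays (0.09 and -0.02 in double mutants), centriole duplication genes at 0.39 and 0.32, ectoderm markers at 0.62 and 0.63, and endothelium markers at -0.50 and -0.36.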

How the data were processed

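Expression was measured on 5 single-channel Affymetrix arrays. The deposited values were linear intensities, 1 per probe set and array. RMA and limma were named in the submitters' processing notes, without version, role or order. The sources used here do not give the step that made the values linear, nor the background and normalization settings. Array medians of the deposited intensities lay between 39.4 and 44.4, and no further normalization was applied before taking log2. In 18 of the 44 members at least 2 arrays held the same deposited intensity, as did 21842 of all probe sets, which narrows the spread of such genes.

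The table held 45101 probe sets, from which 64 control probe sets were dropped. Genes were named from the platform annotation, and 34945 probe sets carried 1 symbol. The genotypes were fitted in limma 3.58.1 (R 4.3.3) as 2 group means without covariates, with variances moderated without an intensity trend (residual df 3, prior df 1.29). Two-sided p-values were Benjamini-Hochberg adjusted over all 45037 probe sets, and called under 0.05. Differences are double mutant minus wild type in log2, with limma's SE. The number of arrays limits the precision. The fit was tested on simulated data with far fewer changed probe sets than were called here. Small changes were mostly not called there, and that rate does not carry over to these data. A dim probe set lay below the array median in all arrays.

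Every member called on its brightest probe set was named with its values, with the member of smallest p in a role without calls. Other probe sets were named where called or opposite in sign, and up to 3 called genes of each other list. Further genes were named after their values were seen. Members and lists were chosen with earlier results of these data known. Alternatives were another scaling, a filter, a trend, a pseudocount of 16, single arrays left out, a replicate block, other probe sets and another call rule.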

Additional observations from a re-analysis of the deposited data

Results flagged for a closer look

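The poly-A spike-ins, bacterial transcripts outside the fit, had signal in the double mutant arrays above the wild type level. Mean log2 intensities were 7.09 for Dap, 5.24 for Thr, 5.36 for Phe and 4.86 for Lys in double mutants, against 3.30, 3.50, 3.54 and 3.31 in wild type. Trpn, a control for an absent transcript, was at 3.10 and 3.07.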

How the results depend on the processing

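On the brightest probe set all 7 called cilium genes kept their sign with equal array medians, quantile normalization and a replicate block. The filter, the trend, the pseudocount and leaving out an array could not change it, since the groups did not overlap. Ift81, the called gene with other probe sets, differed by 0.16 and -0.15 on those. Genes called in neither fit changed sign 31 times. With equal array medians, which moved the median of all probe sets to -0.10, 7 members were called lower and the members' median was -0.10. With all probe sets of a gene averaged, 9 members were called lower. The share over all genes in that fit is not given here, so this count is no result about the members. By the second brightest probe set 0 of 20 members were called higher and 5 lower, beside 624 and 1473 of 9010 genes. With only probe sets whose 5 values differ, chosen after seeing the data, 5 members were called higher. That setting left out 18 of the 44 members, and its share over all probe sets is not given here. Leaving out arrays in turn gave 0 to 2 members called higher and 0 to 3 lower, a median of -0.022 to 0.092, and 0 to 1963 probe sets called higher and 0 to 3198 lower. With 1 double mutant array left, that array is assumed to vary like wild type. Quantile normalization, the trend, the pseudocount, the filter on dim probe sets, probe sets without shared-probe suffixes and the rule of an unadjusted p under 0.01 with at least 1.5-fold kept these counts within 1.5 times. Probe sets without such suffixes changed which members were called. The Ift81 rise was lost there, and limma called Kif3b (adjusted p = 0.022) and Ift122 (adjusted p = 0.0496) lower. Bbs9 was called lower under 4 settings and Ift88 higher under 3. With a replicate block 0 members were called higher (13 had an unadjusted p under 0.05), 1 lower, and 1022 and 1329 probe sets higher and lower. Deviations of arrays with the same replicate number correlated at 0.089 and 0.12 over 2 pairs. The deviations of the 2 double mutant arrays mirror each other, so these are not separate checks and cannot settle whether arrays were paired. The titles give the samples only a number. No depth is known for array values, and dim probe sets such as that of Tmem67 limit what a fall can show.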
